A study of Chlorocebus aethiops with 12 samples.

Results

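A set of 10 genes that decide which fuel a cell burns or makes was followed, out of the 32379 transcript records (or probes without a record) on the array. They were taken by RefSeq transcript record. They are the pyruvate dehydrogenase kinases PDK1 (NM_002610), PDK2 (NM_002611), PDK3 (NM_005391) and PDK4 (NM_002612), the secreted lipase inhibitor ANGPTL4 (NM_139314), the gluconeogenic enzymes PCK1 (NM_002591), PCK2 (NM_004563) and FBP1 (NM_000507), glutamine synthetase GLUL (NM_002065) and CPT1A (NM_001876), which loads fatty acids for import into mitochondria. The array carries 14 probes for them, with a pair of probes each for PDK1, PDK4, PCK1 and PCK2.

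The 12 arrays hold total RNA of COS-1, a kidney fibroblast-like line of the African green monkey (Chlorocebus aethiops). All cells were transiently transfected with FLAG-hGR, a tagged human glucocorticoid receptor with the tyrosine exchange Y30E (to glutamate) or Y30F (to phenylalanine), and with mCCRP-V5, the tagged mouse co-chaperone CCRP. Glutamate is commonly used as a stand-in for a phosphorylated tyrosine, whereas phenylalanine cannot be phosphorylated. The series title sets a receptor with N/C interaction against one without it. The sample descriptions list both constructs for every array, while a shorter label names only mCCRP-V5 for Y30F and only FLAG-hGR for Y30E, and the descriptions were followed. From 40 hours after transfection, dexamethasone (100 nM), a synthetic glucocorticoid, or its vehicle DMSO (0.1%) was given for 6 hours. The groups are Y30E with dexamethasone (Y30E-DEX), Y30E with vehicle (Y30E-DMSO), Y30F with dexamethasone (Y30F-DEX) and Y30F with vehicle (Y30F-DMSO), with 3 arrays each. No wild-type receptor and no cells without transfected receptor are among them, and the labels do not say whether arrays of a group came from separate cultures. The p-values rest on differences among these arrays alone, and that variation could be purely technical. In RNA of a whole culture, fewer cells responding and less RNA per cell cannot be told apart.

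The glucocorticoid receptor is a hormone-activated transcription factor, and fasting, when glucocorticoids are high, is a state in which tissues turn from glucose to fat. The PDKs phosphorylate and switch off the pyruvate dehydrogenase complex, which closes the entry of glucose carbon into the citric acid cycle. ANGPTL4 inhibits lipoprotein lipase and so changes the supply of fatty acids from blood lipids. PCK1 (cytosolic) and PCK2 (mitochondrial) make phosphoenolpyruvate from oxaloacetate, FBP1, fructose-bisphosphatase, acts further along the route to glucose, GLUL joins ammonia to glutamate, and CPT1A loads long-chain fatty acids for import into mitochondria. PDK4, ANGPTL4, PCK1 and GLUL are well-known glucocorticoid-responsive genes in other cells.

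Signals are given as a percentage of the 75th percentile of the same array's processed signals, which ranged from 706 to 876 units over the 12 arrays. Between 60.5% and 67.0% of the spots on an array were well above background. The lowest such signal on an array lay between 2.17% and 3.14% of its 75th percentile, and no spot was saturated. The arrays sit on 3 slides of 4, and slide partly follows group. On slide 1, Y30F-DEX replicate 1 sits beside all 3 Y30F-DMSO arrays. Slide 3 carries all 3 arrays of Y30E-DEX together with replicate 3 of Y30E-DMSO. The other two Y30E-DMSO arrays share slide 2 with the other two Y30F-DEX arrays (replicates 2 and 3). For the same receptor, dexamethasone and vehicle therefore meet only within slides 1 and 3, whereas no slide holds both receptors under the same treatment. Probes designed for human transcripts were hybridised with monkey RNA, so sequence differences may weaken some of them. Levels of different probes were therefore not compared.

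Of the 14 probes, 8 were well above background on all 12 arrays and 3 on none. PDK1, PDK2, PDK3, PDK4, PCK2 and GLUL had a probe above background throughout. PCK1 was above it on 11 arrays, CPT1A on 4, ANGPTL4 on 2 and FBP1 on 0. To be tested, a probe had to reach that level on every array of 1 or more groups, and 10 probes, from 8 of the 10 genes, did so. ANGPTL4 and FBP1 did not, and CPT1A entered through Y30E-DEX alone, so its inclusion is tied to its being high there.

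**Figure D1:**
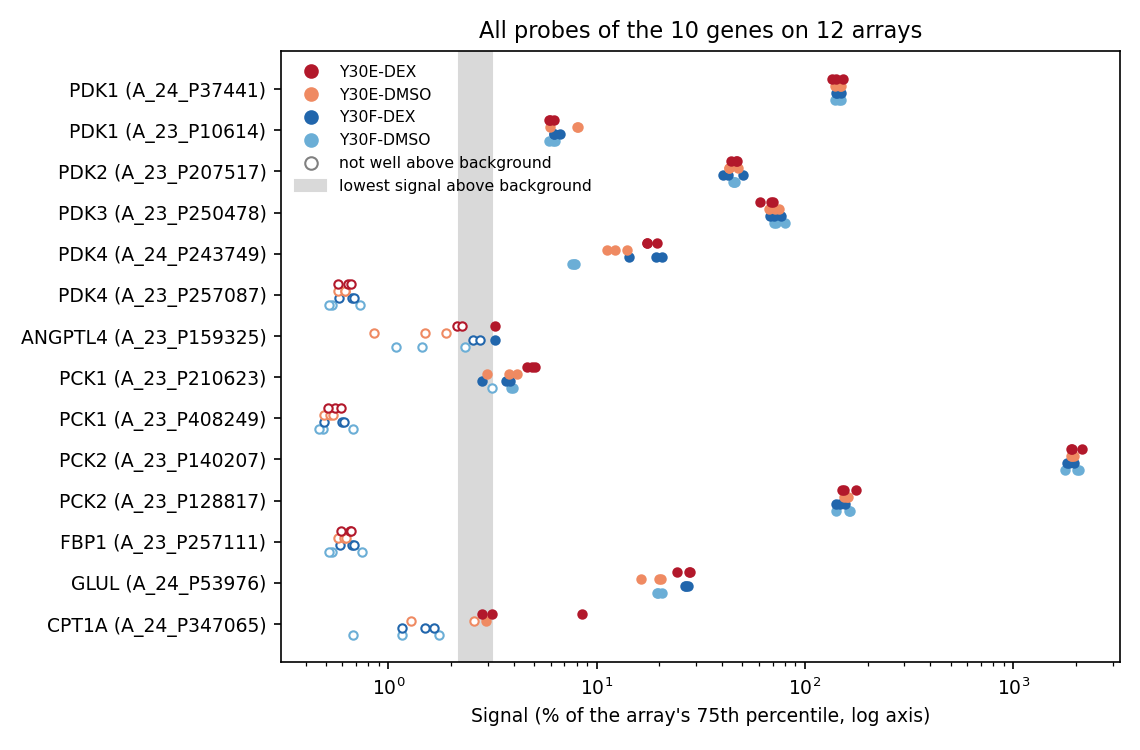
Signal of each of the 14 probes on the 12 arrays, as a percentage of the array's 75th percentile on a log axis, coloured by group. Open points were not well above background, and the grey band spans the lowest signal above background on each array (2.17% to 3.14%); levels of different probes are not comparable.

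With dexamethasone, GLUL rose in cells with Y30E, and PDK4 and GLUL rose in cells with Y30F, while the other kinases and PCK2 gave differences near 0. PDK4 was 1.45-fold higher in Y30E-DEX than in Y30E-DMSO, a difference that missed the threshold in the fit used here. It was 2.31-fold higher in Y30F-DEX than in Y30F-DMSO. GLUL was 1.42-fold higher with dexamethasone with Y30E and 1.36-fold with Y30F. The calls are from limma on the log2 scale over 20037 features, with a Benjamini-Hochberg adjusted p under 0.05. Of the 8 tested genes, 1 was called with Y30E, where 2.11% of all features were called in either direction. With Y30F 2 were called, against 1.82% of all features. When both receptors were averaged, 2 were called (PDK4 and GLUL), against 3.77%. With slide as a fixed block, GLUL lost each of these calls (adjusted p = 0.356 with Y30E, 0.216 with Y30F and 0.0552 for the average), and PDK4 was called with both receptors. For each receptor, the fixed-block fit sets a single array against the others of its slide. None of the 8 tested genes was called lower in any comparison.

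Leaving out CPT1A, whose inclusion was set by Y30E-DEX, the dexamethasone-to-vehicle log2 differences of the other 7 tested genes had a median of 0.05 with Y30E and -0.04 with Y30F. The same medians over all features were -0.00053 with Y30E and 0.020 with Y30F. Values did not overlap between dexamethasone and vehicle arrays for 3 of these 7 with Y30E (PDK4, PCK1 and GLUL), all higher with dexamethasone, where 22.6% of 20000 features had no overlap in either direction. With Y30F this held for 2 of the 7 (PDK4 and GLUL), also higher, where 15.4% of the features had none.

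**Figure D2:**
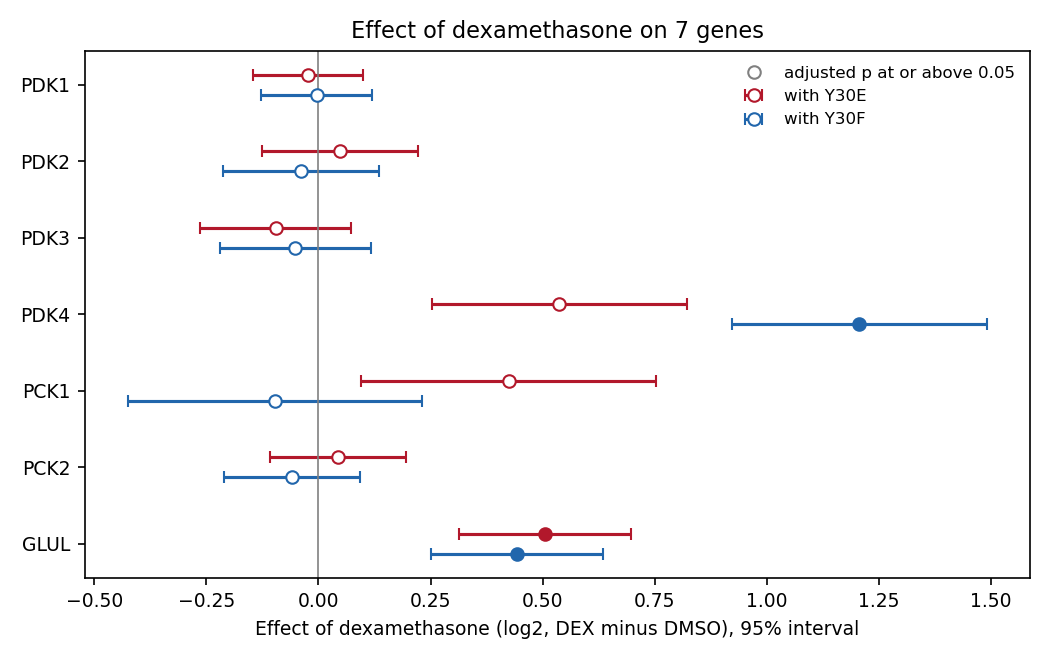
Dexamethasone-minus-vehicle difference on the log2 scale for 7 genes, with Y30E (red) and with Y30F (blue). Points are limma estimates with 95% intervals and filled points have an adjusted p under 0.05, which GLUL with both receptors and PDK4 with Y30F reach; CPT1A, below background in both Y30F groups, is not drawn, nor are the untested ANGPTL4 and FBP1.

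PDK4, the kinase isoform best known for its induction by fasting and glucocorticoids, was read by probe A_24_P243749. In Y30E-DEX it had 17.4%, 17.5% and 19.4% of the 75th percentile, against 12.3%, 14.0% and 11.2% in Y30E-DMSO. In Y30F-DEX it had 14.3%, 20.6% and 19.3%, against 7.86%, 7.57% and 7.80% in Y30F-DMSO. Every dexamethasone array was above every vehicle array, across both receptors. The 3 Y30F-DMSO arrays were the lowest of all 12, and Y30F-DEX replicate 1 was the lowest of the dexamethasone arrays.

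With Y30E the PDK4 difference was 0.54 ± 0.13 on the log2 scale (SE; 95% interval 0.25 to 0.82; limma adjusted p = 0.0672, higher in 3 of 3 arrays). With Y30F the difference was 1.21 ± 0.13 (0.92 to 1.49; limma adjusted p = 0.000822), also higher in 3 of 3 arrays. By p the Y30F difference stood 59th among the 20037 features, and by size it was the 91st largest rise. Averaged over both receptors, PDK4 was 1.83-fold higher with dexamethasone (0.87 ± 0.09; adjusted p = 0.000298).

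The slides bear on the size of the PDK4 response. Within slide 3, the Y30E-DEX arrays exceeded the Y30E-DMSO array by 0.69 on the log2 scale, or 1.61-fold. Within slide 1, the single Y30F-DEX array exceeded the Y30F-DMSO arrays by 0.88, or 1.85-fold. PDK4 signals on slide 2 were higher than those of the same group elsewhere, by 0.23 on the log2 scale for Y30E-DMSO (against slide 3) and by 0.48 for Y30F-DEX (against slide 1).

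With slide as a fixed block, limma called PDK4 higher with both receptors. That fit takes both sizes from the same within-slide comparisons, each with a single array on 1 side, so it is not a separate check. The difference was 0.69 with Y30E (adjusted p = 0.0187) and 0.88 with Y30F (adjusted p = 0.00800). The difference with Y30E was called under 6 of 25 alternative settings tried, at 0.26 to 0.69 on the log2 scale (adjusted p 0.00731 to 0.249). That with Y30F was called under all 25, at 0.68 to 1.37 (adjusted p 0.000132 to 0.0332). Of the 25, 1 used the series table values and so repeats the fit used here. Others leave the size of the difference unchanged, such as no filter on dim probes or every probe as a feature. Leaving out an array of the other receptor also leaves it unchanged, so the 25 are not separate checks. The smallest sizes, 0.26 with Y30E and 0.68 with Y30F, came from normexp background correction. That setting adds an offset of 50 units, which by itself shrinks log2 differences of dim probes. Processed PDK4 signals ran from 61.6 to 165 units.

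**Figure D3:**
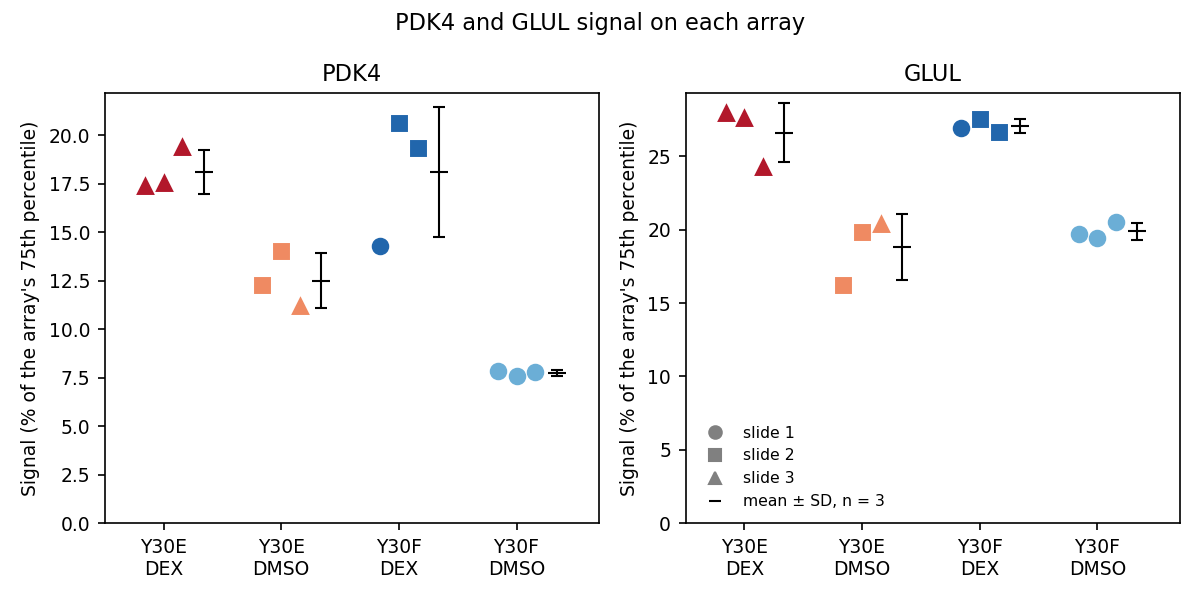
Signals of PDK4 and GLUL on each of the 12 arrays, as a percentage of the array's 75th percentile, by group, with the slide shown by the symbol and the mean ± SD of 3 arrays beside the points. PDK4 lies at 14.3% to 20.6% on the dexamethasone arrays and at 7.57% to 14.0% on the vehicle arrays; GLUL spans 24.3% to 28.0% with dexamethasone and 16.2% to 20.5% with vehicle.

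The second PDK4 probe, A_23_P257087, was above background on no array and read 0.519% to 0.730% throughout, so PDK4 rests on 1 probe. PDK1, a kinase isoform induced by low oxygen, had 136% to 152% on probe A_24_P37441 in Y30E-DEX, against 139% to 149% in Y30E-DMSO, and 141% to 149% in Y30F-DEX, against 139% to 148% in Y30F-DMSO. The log2 difference was -0.02 with Y30E (-0.15 to 0.10) and -0.004 with Y30F (-0.13 to 0.12). All 4 groups overlapped.

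The second PDK1 probe, A_23_P10614, disagreed in 1 group. It read 5.97%, 5.90% and 6.26% in Y30E-DEX, against 8.11%, 8.05% and 5.95% in Y30E-DMSO, with 5.88% to 6.64% over the 6 Y30F arrays. The 2 high Y30E-DMSO arrays are those on slide 2. With every probe as a feature its difference with Y30E was -0.27 ± 0.10 (limma adjusted p = 0.281), and with Y30F 0.06.

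PDK2, the most widely expressed isoform, ranged from 40.6% to 50.5% over the 12 arrays (probe A_23_P207517). The log2 difference was 0.05 with Y30E (-0.13 to 0.22) and -0.04 with Y30F (-0.21 to 0.14). PDK3 ranged from 61.1% to 80.0% (probe A_23_P250478), with a difference of -0.10 with Y30E (-0.26 to 0.07) and -0.05 with Y30F (-0.22 to 0.12). On the brighter probe of PDK1 and the probes of PDK2 and PDK3, the intervals lie within -0.26 to 0.22 on the log2 scale with either receptor. That of PDK4 starts at 0.25 with Y30E and at 0.92 with Y30F. The interval of the second PDK1 probe with Y30F reaches 0.29, and with Y30E it runs from -0.50 to -0.04.

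ANGPTL4 was near the detection limit on its single probe, A_23_P159325. It had 2.13%, 2.27% and 3.25% of the 75th percentile in Y30E-DEX, against 1.49%, 1.89% and 0.855% in Y30E-DMSO. It had 2.54%, 2.75% and 3.25% in Y30F-DEX, against 1.09%, 2.34% and 1.45% in Y30F-DMSO. Within each receptor every dexamethasone array was above every vehicle array, but only replicate 3 of Y30E-DEX and replicate 3 of Y30F-DEX were well above background.

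Since no vehicle array measured ANGPTL4, its folds were taken against the detection limit. The mean of the brighter group was set against the higher, on each array of the dimmer group, of the probe's own signal and the lowest signal above background. The fold was then 1.02 for Y30E-DEX over Y30E-DMSO and 1.12 for Y30F-DEX over Y30F-DMSO. Only 1 array of each dexamethasone group was well above background, so the brighter means also hold undetected signals. These folds are therefore not lower bounds, and a rise of ANGPTL4 is not established. In a fit with no filter on dim probes (32379 features), which takes the undetected signals as they stand, limma did not call ANGPTL4 with Y30E (adjusted p = 0.436), with Y30F (adjusted p = 0.452) or for the average (adjusted p = 0.161).

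**Figure D4:**
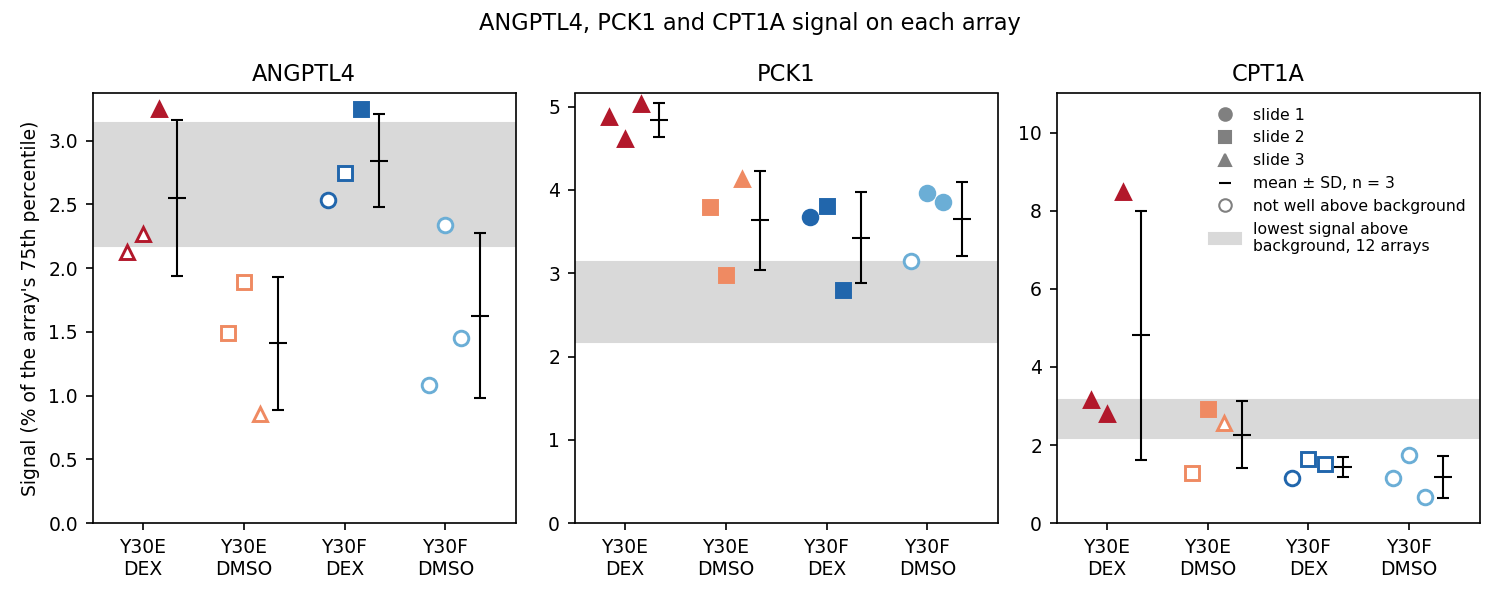
Signals of ANGPTL4, PCK1 and CPT1A on each array, as a percentage of the array's 75th percentile, with slides by symbol and the mean ± SD of 3 arrays. Open points were not well above background and the grey band is the range of the lowest signal above it; ANGPTL4 lies in or near the band on most dexamethasone arrays, PCK1 is highest in Y30E-DEX at 4.62% to 5.03%, and CPT1A reaches 8.47% on 1 Y30E-DEX array.

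Among the gluconeogenic enzymes none was called. PCK1, whose promoter is a classic glucocorticoid target in liver, had 4.87%, 4.62% and 5.03% in Y30E-DEX, against 3.80%, 2.98% and 4.14% in Y30E-DMSO (probe A_23_P210623). It had 3.68%, 3.81% and 2.80% in Y30F-DEX, against 3.14%, 3.96% and 3.85% in Y30F-DMSO. The 3 Y30E-DEX arrays were the highest of all 12, and the other groups overlapped. The signals lie close to the detection limit, and Y30F-DMSO replicate 1 was not well above background.

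The PCK1 difference with Y30E was 0.42 ± 0.15 on the log2 scale (0.10 to 0.75; limma adjusted p = 0.231) and with Y30F -0.10 ± 0.15 (-0.43 to 0.23). Within slide 3 the Y30E difference was 0.23, and with slide as a fixed block it was 0.23 (adjusted p = 0.936). The second PCK1 probe, A_23_P408249, was above background on no array.

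PCK2, the mitochondrial enzyme, was bright on both probes. On probe A_23_P140207 the 12 arrays ranged from 1774% to 2129%, with a log2 difference of 0.04 with Y30E (-0.11 to 0.20) and -0.06 with Y30F (-0.21 to 0.09). Probe A_23_P128817 ranged from 140% to 176%, with 0.02 with Y30E and -0.08 with Y30F. FBP1 (probe A_23_P257111) read 0.515% to 0.747% and was below background on all 12 arrays, so it was not tested and no fold can be given.

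GLUL, which stores ammonia as glutamine and was read by probe A_24_P53976, had 28.0%, 27.6% and 24.3% in Y30E-DEX, against 16.2%, 19.8% and 20.4% in Y30E-DMSO. In Y30F-DEX it had 27.0%, 27.6% and 26.6%, against 19.7%, 19.4% and 20.5% in Y30F-DMSO. Every dexamethasone array was above every vehicle array with either receptor. The groups averaged 26.6% ± 2.04 in Y30E-DEX, 18.8% ± 2.26 in Y30E-DMSO, 27.1% ± 0.467 in Y30F-DEX and 19.9% ± 0.574 in Y30F-DMSO (SD, n = 3 each).

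The GLUL difference was 0.51 ± 0.09 on the log2 scale with Y30E (0.31 to 0.70; limma adjusted p = 0.0142) and 0.44 ± 0.09 with Y30F (0.25 to 0.64; adjusted p = 0.0293), higher in 3 of 3 arrays each. The average, 1.39-fold, had an adjusted p of 0.00125. Within slide 3 the difference with Y30E was 0.38, and within slide 1 that with Y30F was 0.44. With slide as a fixed block the sizes equalled these within-slide values, and none of the 3 was called. The call with Y30E held under 20 of 25 alternative settings (0.34 to 0.57, adjusted p 0.00757 to 0.372) and that with Y30F under 14 of 25 (0.32 to 0.47, adjusted p 0.00703 to 0.249). Leaving out Y30E-DEX replicate 1 or 2 ended the Y30E call (adjusted p = 0.0644 and 0.0615). Leaving out any single Y30F array except Y30F-DEX replicate 1 ended the Y30F call, at adjusted p 0.0735 to 0.103.

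**Figure D5:**
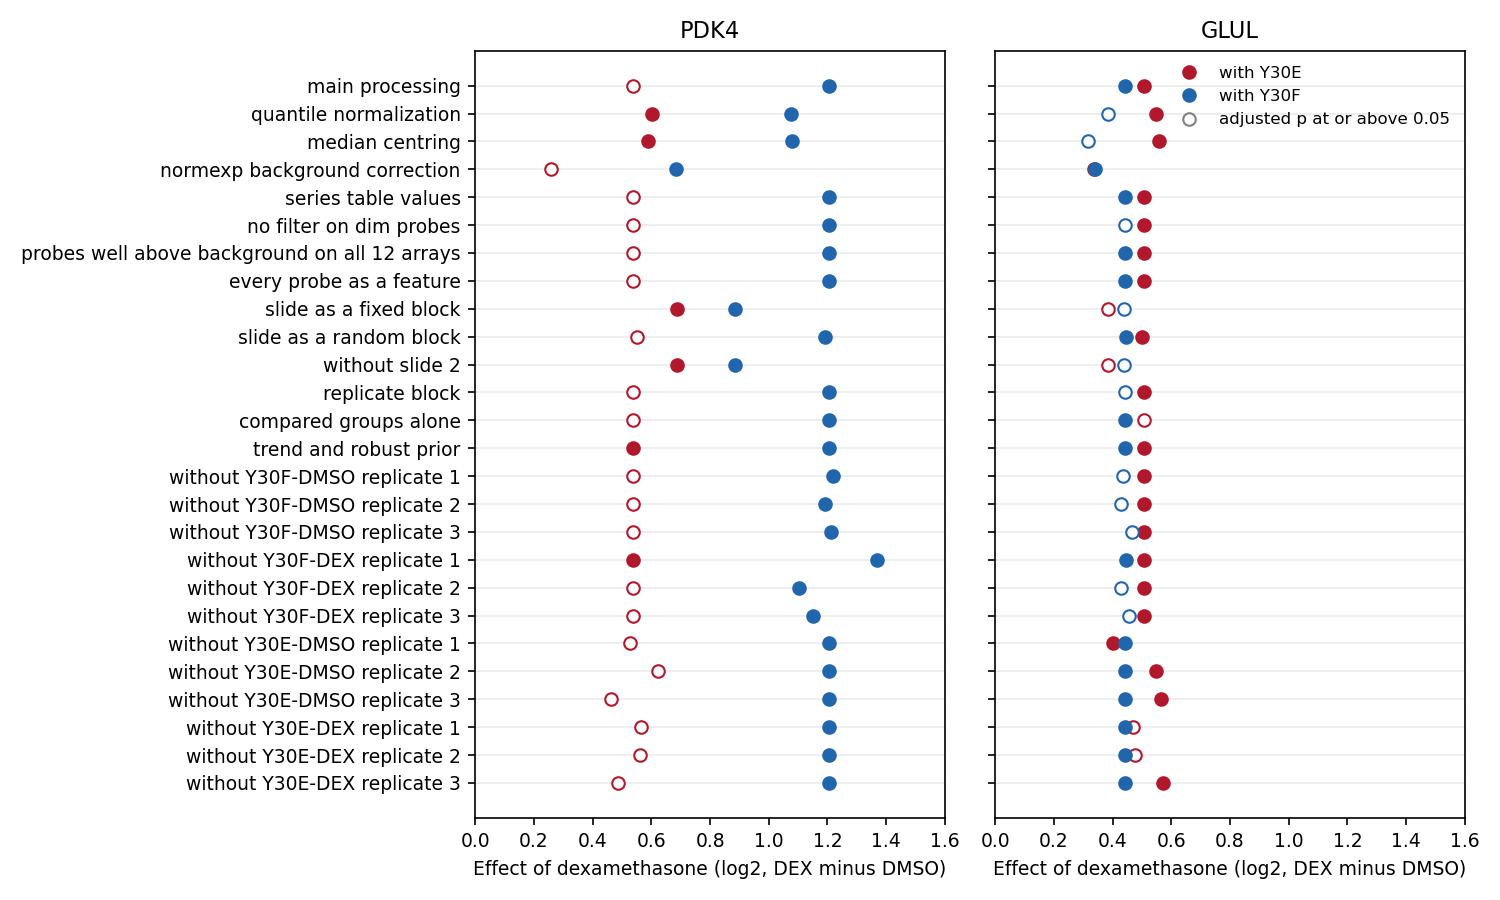
Dexamethasone-minus-vehicle difference (log2) of PDK4 and GLUL under the processing used here and each of 25 alternative settings, with Y30E (red) and Y30F (blue); filled points have a limma adjusted p under 0.05. Every point lies above 0; PDK4 is filled in 6 of the 25 alternatives with Y30E and throughout with Y30F, and GLUL in 20 of them with Y30E and 14 with Y30F.

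CPT1A, which controls the entry of long-chain fatty acids into mitochondria, was measured above background on 4 arrays (probe A_24_P347065). It had 3.14%, 2.80% and 8.47% in Y30E-DEX, against 1.29%, 2.93% and 2.57% in Y30E-DMSO. It had 1.16%, 1.65% and 1.50% in Y30F-DEX, against 1.16%, 1.74% and 0.672% in Y30F-DMSO, all 6 below background. The 3 Y30E-DEX arrays and Y30E-DMSO replicate 2 were the ones above it, and Y30E-DEX replicate 3 stood far above the rest.

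Since CPT1A was admitted to the tests through Y30E-DEX alone, its differences between Y30E-DEX and any other group are a description. Against Y30E-DMSO, measured on 1 of its 3 arrays, the log2 difference was 0.98 ± 0.48, and 0.48 without Y30E-DEX replicate 3. Against Y30F-DEX, measured on 0 of 3 and set at 2.67% by the detection limit, Y30E-DEX was at least 1.58-fold higher. That mean includes Y30E-DEX replicate 3 at 8.47%, while replicates 1 and 2 had 3.14% and 2.80%. Neither difference was called, and between Y30F-DEX and Y30F-DMSO no fold can be given.

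Whether the receptor changed the response was tested as the dexamethasone effect with Y30E minus that with Y30F. None of the 8 tested genes was called, and 0% of all 20037 features were, with limma (2255 features, and PDK4 and PCK1 among the 8 genes, had an unadjusted p under 0.05). For PDK4 the response was smaller with Y30E by 0.67 ± 0.18 on the log2 scale, a difference of -0.67 (-1.07 to -0.27; limma adjusted p = 0.315). With slide as a fixed block the difference was -0.19 ± 0.14 (adjusted p = 1.00). Without Y30F-DEX replicate 1, the lowest of its group, it was -0.83 (adjusted p = 0.00979), the single case of 24 alternatives in which it was called. Slide 1 then holds vehicle arrays alone, and 1130 features are called for the difference of effects. For GLUL the difference of effects was 0.06 ± 0.12 (-0.21 to 0.33). For PCK1 it was 0.52 ± 0.21 (adjusted p = 0.386), and 0.21 with slide as a fixed block.

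The 2 receptors were also set against each other under the same treatment. Under vehicle, PDK4 was 1.61-fold higher in Y30E-DMSO than in Y30F-DMSO, 0.69 ± 0.13 on the log2 scale (0.40 to 0.97; limma adjusted p = 0.144), with no overlap. Leaving out CPT1A, it was the single gene of the other 7 with no overlap there, and 20% of all features had none. No gene of the 8 was called, against 0.00998% of all features. Of the 3 Y30E-DMSO arrays, 2 are on slide 2, and all Y30F-DMSO arrays are on slide 1. With slide as a fixed block the PDK4 difference was 0.28 ± 0.13 (limma adjusted p = 0.783). Without slide 2 it was 0.53, from 1 Y30E-DMSO array on slide 3 against the Y30F-DMSO arrays on slide 1. Receptor and slide cannot be told apart in that value.

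Under dexamethasone PDK4 averaged 18.1% ± 1.12 in Y30E-DEX and 18.1% ± 3.36 in Y30F-DEX (SD, n = 3 each). The log2 difference was 0.016 (-0.27 to 0.30). The values of the 2 groups overlapped. All Y30E-DEX arrays are on slide 3, and the Y30F-DEX arrays are on slides 1 and 2. The receptors are therefore not compared within a slide here. Over 25 alternative settings the PDK4 difference ran from -0.15 to 0.34. PCK1 was 0.51 ± 0.15 higher in Y30E-DEX than in Y30F-DEX (limma adjusted p = 0.235), and 0.17 to 0.59 higher over 24 alternative settings. Leaving out CPT1A, PCK1 was the single gene of the other 7 with no overlap there, where 20.5% of all features had none. None of the 8 was called, against 0.015% of all features. GLUL differed between the receptors by -0.03 under dexamethasone (-0.22 to 0.17) and by -0.09 under vehicle (-0.28 to 0.10).

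Across the 12 arrays, the features whose log2 values followed PDK4 most closely were the records NM_032133 (Pearson r = 0.968) and NM_178140 (r = 0.967), which the files do not pair with gene names. The first was 0.19 higher with dexamethasone with Y30E (limma adjusted p = 0.359) and 0.74 higher with Y30F (adjusted p = 0.00159), and the second 0.48 (adjusted p = 0.102) and 0.88 (adjusted p = 0.00519). GLUL followed PDK4 at r = 0.717, only 797th among the other tested features. The remaining tested genes of the set ranged from r = 0.551 (CPT1A) to r = -0.529 (PDK3). For ANGPTL4, above background on 2 of the 12 arrays, likeness would rest mostly on undetected signals and is not described. These correlations describe 12 arrays that share treatment, receptor and slide, and carry no test.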

How the data were processed

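The deposited files are 1 scanner table per array and a table of the whole series. The authors scanned 1-colour (Cy3) Agilent Whole Human Genome 4x44K arrays and, per the submitters' processing notes, used Agilent Feature Extraction 12. Per the file headers, the processed signal is a background-subtracted intensity on a linear scale. The values of the deposited series table were set against the processed signals of the scanner tables, before any scaling or log2, and 0 differed.

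Of 43376 non-control spots per array, spots marked as outliers (89 to 154 per array) were left out and spots of 1 probe averaged. Intensities were divided by the array's 75th percentile and taken to log2. Probes above background in at least a share of 0.5 of their spots on all arrays of a group were kept (25570 of 41000), and the probe with the highest mean stood for a transcript record, giving 20037 features. Group means over all 12 arrays were fitted with limma 3.58.1 (R 4.3.3; lmFit and eBayes), and p-values were adjusted by Benjamini-Hochberg across the whole table (threshold 0.05). The same code was tested on simulated data. Where 1 compared group was not above background on any array, its signals were raised to at least the lowest signal above background. The fold is then a bound only where the other group was measured on every array. Replicates correlated at r = 0.992 to 0.998, and none were identical. Precision is limited by 3 arrays a group.

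The 10 genes, the settings and the lists were chosen with earlier results of these data known. All 10 were to be named, with the features most like PDK4 and ANGPTL4 (at most 2 records where unnamed); that for ANGPTL4 is left out because most of its signals were undetected. The files pair transcript records with no gene names. Only the 10 records were named, as the rule of choice gives them, and planned pathway lists, cell type markers and a check of the transfected genes were not used here, nor were sequences. Alternatives covered scaling, background correction, dim probes, probe choice, slide, replicate number, the groups fitted, the variance prior and leaving out each array.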

Additional observations from a re-analysis of the deposited data

How the results depend on the processing

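With the processing used here 1 of the 8 tested genes was called for dexamethasone with Y30E, 2 with Y30F, 2 for the average of both, and 0 for the difference of effects or between the receptors under either treatment. The Y30F count was 1 with quantile normalization, median centring, no filter on dim probes, slide as a fixed block, without slide 2 and with the replicate block, and 1 to 2 when arrays were left out singly. In each of those GLUL was lost. The Y30E count was 2 (PDK4 added) with quantile normalization, median centring or a trended robust prior, 0 with the compared groups alone, and 0 to 2 with arrays left out singly. With slide as a fixed block and without slide 2 it stayed at 1 but changed gene, with PDK4 gained and GLUL lost. The average count was 1 with slide as a fixed block and without slide 2. The vehicle comparison of the receptors gave 1 (PDK4) with median centring (0.50, adjusted p = 0.0451) and with the compared groups alone (0.69, adjusted p = 0.0378), and 0 to 1 with arrays left out singly, as did the difference of effects. Both 1s came without Y30F-DEX replicate 1, which also took the features called with Y30F to 1367, against 365, and those called between receptors under vehicle to 598, against 2. Median centring shifted the median of all features by -0.13 for the Y30F effect, -0.18 for the vehicle comparison and 0.18 for the difference of effects. It called 1578 features in that vehicle comparison, against 2. Other settings shifted medians by less than 0.1. Features called without slide 2 fell to 71 with Y30E, 39 with Y30F and 202 for the average, and with slide as a fixed block to 182, 120 and 360, against 423, 365 and 755. The compared groups alone called 137 with Y30F and 165 under vehicle, and 18 differed between effects with slide as a fixed block, against 0. Same-numbered arrays did not deviate together (18 pairs, r from -0.43 to 0.27, 2 over 0.1). Slide cuts across the replicate numbers, so this check cannot decide whether those numbers pair arrays. The replicate block left PDK4 called with Y30F and took GLUL to an adjusted p of 0.0737. Of 1172 values of single genes under alternatives, 1144 kept their direction and side of the threshold or were uncalled in both, 10 passed it newly and 18 lost it; none that was called changed sign, and 83 uncalled ones did. Signal over background limits ANGPTL4, FBP1, CPT1A and PCK1: PCK1 and CPT1A drop out when a probe must be above background on all 12 arrays. Normexp, run on median signals, took the Y30E difference to 0.13 for PCK1 and 0.22 for CPT1A. Its offset of 50 units exceeds every processed PCK1 signal (21.0 to 39.7 units) and by itself shrinks such differences.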
